A study of Mus musculus with 4 samples.

Results

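The genes described here are 10 members of the lipid pathway of the skin barrier. They were taken by symbol from the deposited table: Abca12, Elovl4, Acsbg1, Cers3, Elovl1, Elovl7, Ugcg, Alox12b, Aloxe3 and Sptlc2. Each symbol matched 1 row of the 55401 genes in the table, and all 10 were among the 14479 genes with enough counts to test. The libraries are RNA-seq of stem cells from the hair follicle of C57BL/6 mice in anagen, when the follicle grows. The 2 libraries of 1 group came from mice on a normal diet, and the 2 libraries of the other group from mice given a high-fat diet for 4 months. Total counts lay between 8590570 and 9940848 per library. Ribosomal, mitochondrial and small RNAs took 22.2% and 23.8% of the normal diet counts, against 26.8% and 26.6% of the high-fat diet counts. The labels named no transgene or drug, and left unstated the isolation of the cells, any pooling of animals, and whether the libraries of a diet were separate mice. The p-values therefore measure the spread between these libraries only, which may be technical.

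The outer skin holds water behind a cornified layer whose cells are embedded in sheets of ceramides, cholesterol and free fatty acids. Keratinocytes that leave the basal layer build the ceramides from very long fatty acids, load them with other lipids into lamellar granules, and secrete the granule contents at the border to the cornified layer. Part of the ceramide is esterified with linoleate, oxidised by lipoxygenases and bound to the surface of the cornified cells. Sptlc2 encodes a subunit of serine palmitoyltransferase, the enzyme of the first step of sphingolipid synthesis. Elovl1, Elovl4 and Elovl7 encode fatty acid elongases, Acsbg1 an acyl-CoA synthetase of long and very long chain fatty acids, and Cers3 the ceramide synthase that uses very long acyl chains. Ugcg encodes the enzyme that puts glucose on ceramide, and Abca12 the transporter that fills lamellar granules with lipid. Alox12b and Aloxe3 encode the lipoxygenases that oxidise the linoleate of these ceramides in sequence.

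With the high-fat diet the transporter gene Abca12, the acyl-CoA synthetase gene Acsbg1 and the elongase gene Elovl4 rose about 2-fold. These 3 of the 10 genes passed the test over all genes (edgeR quasi-likelihood test, adjusted p under 0.05) and 0 were lower. Among all genes tested 1.35% were called, 1.12% higher and 0.228% lower. At an unadjusted p under 0.05 the same test gave 6 members higher and 0 lower, against 7.24% of all genes higher. DESeq2 with adjustment gave 3 members higher and 0 lower, against 1.9% of all genes higher. With limma on the deposited FPKM, at a pseudocount of 1 or of 0.1, 0 members were called and 5 had an unadjusted p under 0.05. Of 19913 genes in these limma fits 2097 and 2168 had an unadjusted p under 0.05 in either direction. In edgeR fits that left out 1 library, the member calls were lost without either normal diet library or the second high-fat library. The calls held without the first high-fat library, and the median log2 fold change of the members was 0.77 to 1.21 in these fits. Each of these fits leaves a diet with a lone library, and calls over all genes fell in them too. A call lost in such a fit, here or below, is therefore not particular to that gene. Abca12, Acsbg1 and Elovl4 were also called with the ribosomal, mitochondrial and small RNAs left out. All 10 log2 fold changes were positive, with a median of 1.04, where all genes tested had a median of 0.00. Of all genes tested 7257 had a positive and 7222 a negative value. On counts scaled to a common library size by the trimmed mean of M-values (CPM below), both high-fat libraries stood above both normal diet libraries in 9 members, a pattern held by 22.7% of all genes tested, where 44.6% separated the diets in either direction. On the deposited FPKM, which carry no such scaling, 7 members did so against 17.1% of all genes, and Elovl1, Ugcg and Sptlc2 overlapped. Aloxe3 passed the count filter through the high-fat libraries alone, so that it had to differ. Aloxe3 was also among the 7 members on FPKM. Without it 5 of 9 members were higher at an unadjusted p under 0.05 and 8 were higher with no overlap on CPM. Among all genes, with those that passed through 1 diet alone left out, these shares were 6.7% and 21.5%. The median log2 fold change of the 9 members was 1.03. This subset was chosen after the values were seen. A level in bulk RNA cannot tell more cells of a type from more RNA per cell.

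**Figure D1:**
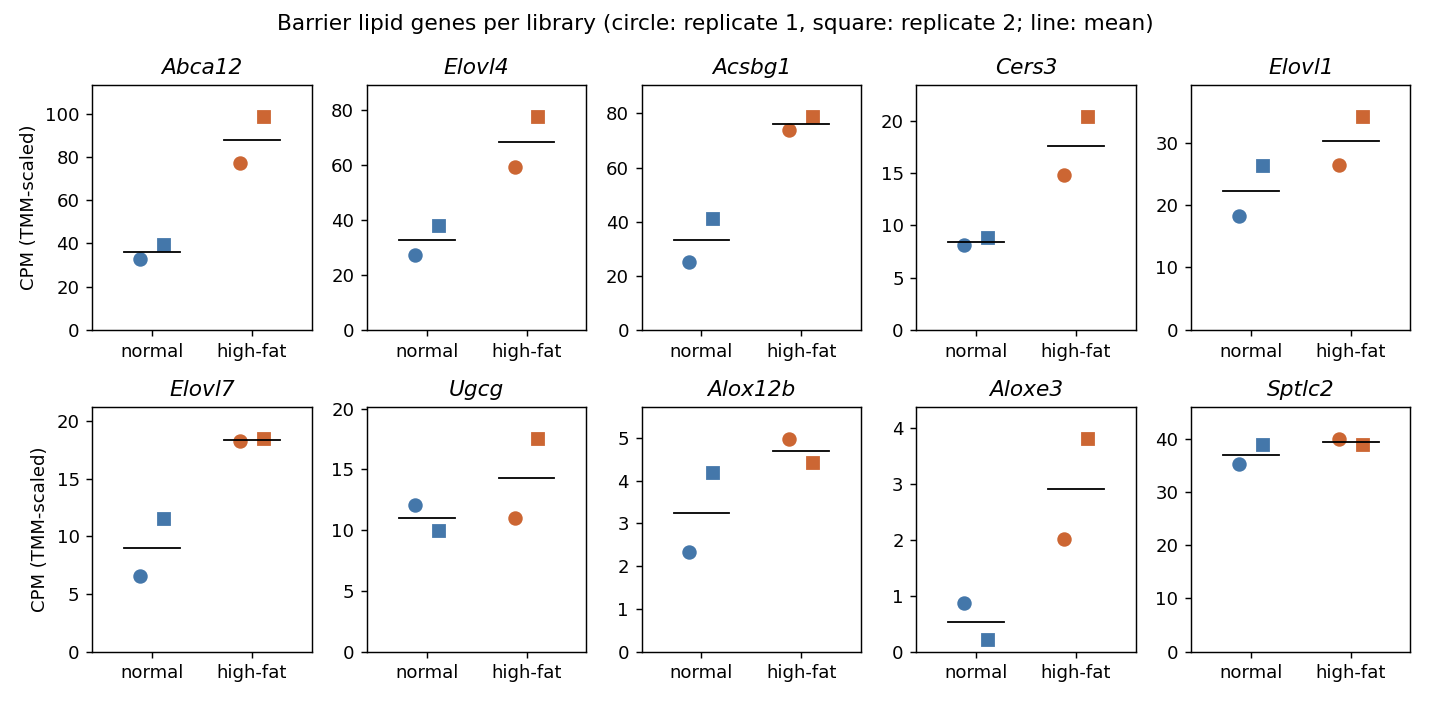
Each panel plots 1 gene, with CPM (linear scale from 0) on the vertical axis, 2 libraries per diet as points (circle, replicate 1; square, replicate 2) and the diet mean as a line. The lower high-fat value is 1.96 times the higher normal diet value in Abca12, 1.80 times in Acsbg1 and 1.56 times in Elovl4. This ratio is 1.69 in Cers3 and 1.59 in Elovl7, which were not called, and the diets overlap in Ugcg. Aloxe3, also not called, passed the count filter through the high-fat libraries alone, so its gap follows from the filter.

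The promoters of Abca12, Acsbg1 and Elovl4 are shown because these 3 members were called higher. RefSeq start sites (build GRCm38.p6) were available for 9 of the 10 members, leaving Aloxe3, and the 250 bases before each start were searched on both strands for 4 motifs of factors active in epidermis. The motifs were AACNGGTT for Grainyhead-like factors, TGANTCA for AP-1, GCCNNNGGC for AP-2 and CACCC for Klf factors. The sequences are given 5′ to 3′ on the strand of the gene. The stretch of Abca12 is chr1:71414911-71415160, minus strand, that of Acsbg1 chr9:54661886-54662135, minus strand, and that of Elovl4 chr9:83806306-83806555, minus strand. Capitals mark matches to a motif, which occurred in Elovl4 alone of these 3.
Abca12: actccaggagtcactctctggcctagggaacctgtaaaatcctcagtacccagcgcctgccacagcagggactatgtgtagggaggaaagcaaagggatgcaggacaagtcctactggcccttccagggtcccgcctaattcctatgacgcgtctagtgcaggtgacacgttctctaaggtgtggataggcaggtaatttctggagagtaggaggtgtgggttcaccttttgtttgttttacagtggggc
Acsbg1: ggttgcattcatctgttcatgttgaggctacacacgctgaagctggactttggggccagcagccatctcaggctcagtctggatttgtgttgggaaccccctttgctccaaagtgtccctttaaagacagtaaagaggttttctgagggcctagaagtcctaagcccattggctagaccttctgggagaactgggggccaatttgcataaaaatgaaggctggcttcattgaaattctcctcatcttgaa
Elovl4: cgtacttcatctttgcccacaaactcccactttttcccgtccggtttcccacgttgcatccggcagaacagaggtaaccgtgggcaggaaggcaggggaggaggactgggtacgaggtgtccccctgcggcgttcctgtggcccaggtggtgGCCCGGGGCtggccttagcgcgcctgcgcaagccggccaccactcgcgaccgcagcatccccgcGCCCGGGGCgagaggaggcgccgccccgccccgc

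The Elovl4 stretch held 2 AP-2 matches, with the first base 98 and 34 bases before the RefSeq start site, which lies 28 bases outside the gene's span in the deposited table (15 bases for Acsbg1). Its GC content was 69.6%, against 53.2% for Abca12 and 48.4% for Acsbg1 and a median of 52.4% over all promoters. Over the 10 member promoters (Elovl1 has 2 start sites) 0 held the Grainyhead-like or the AP-1 letters, 3 held the AP-2 letters and 6 the Klf letters. Of 32851 promoters of the same length 1.79% held the Grainyhead-like letters, 6.75% the AP-1, 13.7% the AP-2 and 52.0% the Klf letters. Elovl7 held 5 Klf matches and each Elovl1 start site 3, and the number of matches per promoter was not compared with all promoters. A match describes letters only.

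Abca12 (chromosome 1, positions 71242276 to 71414910, GRCm38, minus strand), whose loss in people causes harlequin ichthyosis, stood at 32.7 and 39.4 CPM with the normal diet and at 77.0 and 98.5 CPM with the high-fat diet. Both high-fat libraries lay above both normal diet libraries, and the lower of them was 1.96 times the higher normal diet value. The mean went from 36.0 ± 4.68 to 87.8 ± 15.2 CPM (SD, n = 2 per diet), a 2.43-fold rise with a log2 fold change of 1.28 and a standard error of 0.18 (edgeR adjusted p = 0.0078). By p it ranked 30th among all genes tested, ahead of the other 9 members. The call was lost without either normal diet library (adjusted p = 0.464 without the first, 0.141 without the second) or the second high-fat library (0.0526), and the log2 fold change stayed between 1.10 and 1.45 in these edgeR fits and the one without the first high-fat library.

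Acsbg1 (chromosome 9, positions 54604877 to 54661870, minus strand) stood at 25.1 and 41.0 CPM with the normal diet and at 73.8 and 78.7 CPM with the high-fat diet. The normal diet libraries differed 1.64-fold from each other, and the lower high-fat library was 1.80 times the higher of them. The rise was 2.31-fold, from 33.1 ± 11.3 to 76.3 ± 3.47 CPM (SD, n = 2), with a log2 fold change of 1.21 and a standard error of 0.22 (edgeR adjusted p = 0.0249). Without the first normal diet library the log2 fold change was 0.90 (adjusted p = 0.464) and without the second 1.601 (0.139). The call was also lost without the second high-fat library (adjusted p = 0.0669). Its paralog Acsbg2 was listed at 0 in all 4 libraries.

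Elovl4 (chromosome 9, positions 83778692 to 83806277, minus strand), which makes the longest fatty acids of the acylceramides, stood at 27.3 and 37.9 CPM with the normal diet and at 59.2 and 77.5 CPM with the high-fat diet. Each diet spread by less than 1.39-fold, and the diets were 1.56-fold apart at their nearest values. The rise was 2.10-fold, from 32.6 ± 7.48 to 68.4 ± 12.95 CPM (SD, n = 2), with a log2 fold change of 1.07 and a standard error of 0.21 (edgeR adjusted p = 0.0329). Without the first or the second normal diet library or the second high-fat library the call was lost (adjusted p = 0.464, 0.165 and 0.246). It was also lost when libraries were scaled to equal sums of TPM (adjusted p = 0.0751).

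The ceramide synthase gene Cers3 and the elongase gene Elovl7 had log2 fold changes near 1 and were not called. Cers3 (chromosome 7, positions 66743504 to 66823691) stood at 8.14 and 8.77 CPM with the normal diet and at 14.8 and 20.4 CPM with the high-fat diet. The normal diet values nearly coincided and both high-fat values lay above them, with a log2 fold change of 1.06 ± 0.30 (SE; edgeR adjusted p = 0.139). Elovl7 (chromosome 13, positions 108214404 to 108285683) stood at 6.59 and 11.5 CPM with the normal diet and at 18.3 and 18.5 CPM with the high-fat diet. Here the normal diet libraries spread 1.74-fold while the high-fat libraries nearly coincided, and the log2 fold change was 1.03 ± 0.32 (SE; edgeR adjusted p = 0.189). It came to 0.68 when the first normal diet library was left out and to 1.48 when the second was.

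The lipoxygenase genes lie beside each other on the plus strand of chromosome 11, Aloxe3 at positions 69125896 to 69149115 and Alox12b at 69156989 to 69169792, with 7873 bases between them. With the normal diet Aloxe3 had 9 and 2 counts, against 17 and 32 with the high-fat diet. Aloxe3 passed the count filter through the high-fat libraries alone, so this gap between the diets followed from the filter. The 95% exact Poisson intervals, which cover counting error only, were 4.12 to 17.1 and 0.242 to 7.23 counts with the normal diet, against 9.903 to 27.2 and 21.9 to 45.2 with the high-fat diet. Its log2 fold change of 2.39 ± 0.94 (SE) was not called (edgeR adjusted p = 0.292), and it ranged from 1.72 without the second normal diet library to 3.72 without the first. With the normal diet Alox12b had 24 and 40 counts, against 42 and 37 with the high-fat diet. Its scaled levels of 2.33, 4.18, 4.98 and 4.41 CPM did not overlap, but the second normal diet library lay close to the high-fat pair, and the log2 fold change was 0.53 ± 0.56 (SE; edgeR adjusted p = 0.748).

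Elovl1, Ugcg and Sptlc2 had the smallest log2 fold changes of the members. Elovl1 (chromosome 4, positions 118428093 to 118432953) stood at 18.3 and 26.2 CPM with the normal diet and at 26.5 and 34.1 CPM with the high-fat diet, so that the second normal and the first high-fat library were nearly level (log2 fold change 0.45 ± 0.25, SE; edgeR adjusted p = 0.48). It shares 53 exonic bases with Cdc20 on the opposite strand, an anaphase gene whose counts were 1196 and 914 (normal diet), 537 and 474 (high-fat diet), and strand handling is not given in the sources used here. Ugcg (chromosome 4, positions 59189257 to 59222833) stood at 12.1 and 9.92 CPM with the normal diet and at 11.04 and 17.5 CPM with the high-fat diet. The first high-fat library lay within the normal diet range (log2 fold change 0.37 ± 0.32, SE; edgeR adjusted p = 0.689), and without the second high-fat library the log2 fold change was 0.0023. Sptlc2 (chromosome 12, positions 87305058 to 87388355) was the steadiest member at 35.3, 38.7, 40.0 and 38.8 CPM. The log2 fold change of 0.09 was smaller than its SE of 0.18 (edgeR adjusted p = 0.896).

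**Figure D2:**
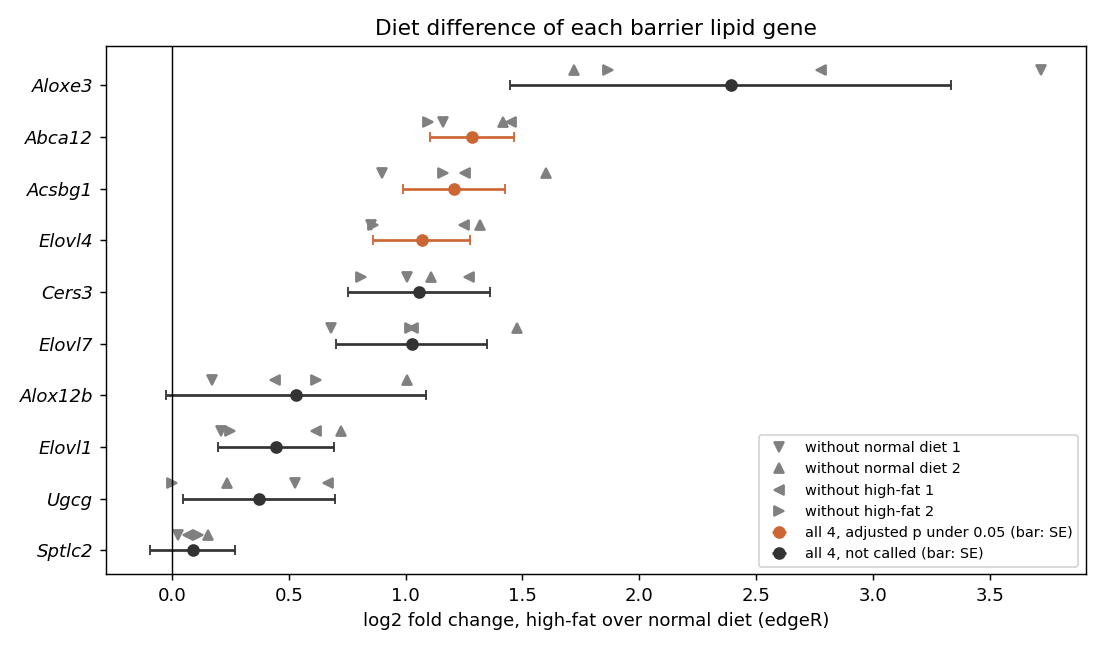
The horizontal axis is the log2 fold change of high-fat over normal diet, with points and bars for the estimate and SE from all 4 libraries (orange, adjusted p under 0.05) and grey triangles for fits that leave out 1 library. The estimates lie between 0.09 for Sptlc2 and 2.39 for Aloxe3. In each member the triangles without the first and without the second normal diet library lie on opposite sides of the estimate.

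The normal diet libraries were not alike in these genes. In 8 of the 10 members the second stood above the first, with Ugcg and Aloxe3 the other way, as the second high-fat library stood above its pair in 8 members. Within the normal diet the ratio passed 1.5-fold in either direction in 4 members. Summed over the members, CPM were 169 and 218 with the normal diet, against 328 and 392 with the high-fat diet. The sum was 1.86-fold higher with the high-fat diet, and 1.29-fold higher in the second than in the first normal diet library. Each member and each of these sums rests on the same 4 libraries.

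Levels of different genes can be compared only per length, so the order of the members is given in FPKM. Elovl4 and Acsbg1 were the most abundant members in each library, at 9.37 to 12.8 and 7.23 to 11.6 FPKM with the normal diet, against 18.9 to 25 and 19.8 to 21.3 FPKM with the high-fat diet. Elovl1 followed at 6.97 to 12.2 FPKM over the 4 libraries. Sptlc2 came next with the normal diet, at 4.51 and 4.88 FPKM, and Abca12, at 2.30 and 2.72 FPKM there, took that place with the high-fat diet at 5.02 and 6.49 FPKM. With the normal diet Cers3, Abca12, Elovl7 and Ugcg lay between 1.70 and 2.93 FPKM, and neighbours in that order overlapped. With the high-fat diet Cers3 and Elovl7 lay at 4.39 to 6.11 FPKM beside Sptlc2, and Ugcg below them at 2.04 and 3.28 FPKM. Alox12b, at 0.99 to 1.98 FPKM, and Aloxe3, at 0.03 to 0.58 FPKM, closed the order in each library.

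Within their enzyme families, Elovl1, Elovl4, Elovl7 and Cers3 held a larger share of FPKM in both high-fat libraries than in either normal diet library. So did Cers6, Sptlc3 and Alox12 outside the members. Sptlc2 held a smaller share, as did Elovl5, Elovl6, Cers2 and Sptlc1 outside the members, and Alox12b overlapped. Aloxe3 passed the count filter through the high-fat libraries alone and is left out of this comparison. The gap was narrow for Elovl1, with 12.7% and 18.3% against 18.4% and 19.6%, and the FPKM of Elovl1 itself overlapped between the diets. Among the 7 elongase genes Elovl4 supplied 17.1% and 23.9% of the family's FPKM with the normal diet, against 37.1% and 40.1% with the high-fat diet. With the normal diet its rank was 3 and 2, and it led in both high-fat libraries. Elovl6, which extends palmitate, led with the normal diet at 21.8 and 14.96 FPKM and stood at 9.97 and 11.1 FPKM with the high-fat diet, a log2 fold change of -0.71 ± 0.18 (SE) that was not called (edgeR adjusted p = 0.0859). Elovl5, an elongase of polyunsaturated fatty acids, had a log2 fold change of -0.63 ± 0.19 (SE; edgeR adjusted p = 0.17). The difference between Elovl4 and these elongases was not tested.

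Among the 6 ceramide synthase genes Cers3 supplied 11.1% and 11.9% of the FPKM with the normal diet, against 18.6% and 23.1% with the high-fat diet. Its rank was 5 in both normal diet libraries, against 4 and 2 with the high-fat diet. Of the 3 serine palmitoyltransferase subunit genes Sptlc1 was first in each library, at 10.7 to 13.4 FPKM, and Sptlc2 second in 3 libraries. The alternative subunit gene Sptlc3 stood at 1.13 and 1.99 FPKM with the normal diet and at 3.78 and 5.65 FPKM with the high-fat diet, where it passed Sptlc2 in the second library. Among 7 lipoxygenase genes Alox12e supplied 88.5% to 94.3% of the FPKM, Alox12b 2.54% to 5.84% and Aloxe3 0.0996% to 0.937%.

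**Figure D3:**
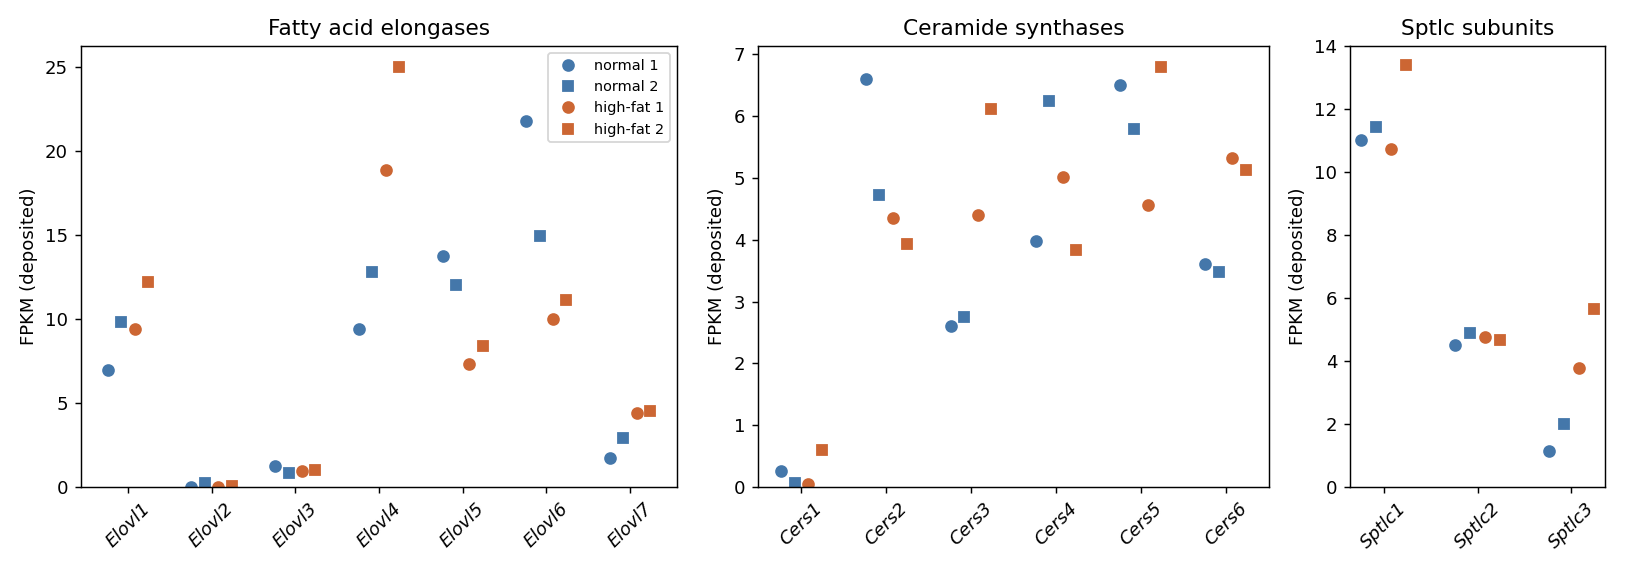
Deposited FPKM (linear scale) are plotted for each gene of the elongase, ceramide synthase and serine palmitoyltransferase families in the 4 libraries (blue, normal diet; orange, high-fat diet; circle, replicate 1; square, replicate 2). Elovl4 lies highest of the elongases in both high-fat libraries, at 18.9 and 25 FPKM, and Elovl6 in both normal diet libraries.

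The other genes of the pathway, in 7 lists, held 86 tested genes, of which 4 were higher and 1 was lower, where 1.12% of all genes tested were higher and 0.228% lower. Their median log2 fold change was 0.22, and 59 values were positive and 27 negative. Of these genes Alox5, B4galt6 and Hacd4 passed the count filter through the high-fat libraries alone, and without them the median was 0.20 with 56 positive. In the list of acylceramide and lipid envelope genes 1 of 11 was higher and 0 lower, with a median of 0.70. Nipal4, an ichthyosis gene of the outer epidermis, rose 3.31-fold from 4.65 and 7.31 to 19.0 and 20.6 CPM (edgeR adjusted p = 0.0286), and both high-fat values lay well above both normal diet values. Among lamellar granule traffic and cargo genes 1 of 9 was higher and 0 lower, with a median of 0.40. Spink5, a protease inhibitor carried by the granules, rose 1.85-fold from 41.5 and 54.7 to 83.8 and 94.3 CPM (edgeR adjusted p = 0.0332), with no overlap.

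Among genes of fatty acid elongation and activation 1 of 16 was higher and 0 lower, and the median of -0.02 lay near that of all genes. Acsl1, an acyl-CoA synthetase of long chain fatty acids, rose 2.56-fold from 19.8 and 21.9 to 48.5 and 58.0 CPM (edgeR adjusted p = 0.0082), with the diets far apart. Of the other lipoxygenase genes 1 of 4 was higher and 0 lower. Alox12e, the epidermal lipoxygenase, rose 1.99-fold from 100.2 and 73.7 to 183 and 163 CPM (edgeR adjusted p = 0.0157), and the first normal diet library was the higher of its pair. Without the first normal diet library none of these 4 calls remained (adjusted p = 0.456 to 0.464), nor without the second (0.141 to 0.165). Without the first high-fat library the calls of Nipal4, Spink5 and Alox12e were lost (adjusted p = 0.0902, 0.075 and 0.0671). Those of Nipal4, Spink5 and Acsl1 were lost when the second high-fat library was left out (adjusted p = 0.139, 0.205 and 0.063). With equal sums of TPM those of Spink5 and Alox12e were lost (adjusted p = 0.103 and 0.1).

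The core of ceramide synthesis had 0 of 12 genes called by edgeR, with 2 higher and 0 lower at an unadjusted p under 0.05 (7.24% of all genes were higher by that rule), and 1 higher by DESeq2. The median log2 fold change was 0.08. The 2 smallest p belonged to Sptlc3, with a log2 fold change of 1.68 ± 0.41 (SE; edgeR adjusted p = 0.0787), and to the ceramide synthase gene Cers6, at 0.65 ± 0.18 (SE; edgeR adjusted p = 0.122). Genes of glucosylceramide and sphingomyelin turnover had 0 of 19 called by edgeR and by DESeq2, with 5 higher (4 without B4galt6) and 0 lower at an unadjusted p under 0.05 and a median of 0.18. The smallest p were those of the alkaline ceramidase gene Acer1, at 1.38 ± 0.39 (SE; edgeR adjusted p = 0.131), and of the sphingosine kinase gene Sphk1, at 1.44 ± 0.47 (SE; edgeR adjusted p = 0.203). Among 15 regulators of the barrier 0 were higher and 1 was lower, with a median of -0.01. Prdm1, a transcriptional repressor that acts in late epidermal and sebaceous differentiation, fell from 60.8 and 46.3 to 25.5 and 29.5 CPM (log2 fold change -0.96, edgeR adjusted p = 0.0413). Its call was lost without any 1 of the libraries, with log2 fold changes of -1.15 to -0.75. It was also lost with equal sums of TPM (edgeR adjusted p = 0.1).

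**Figure D4:**
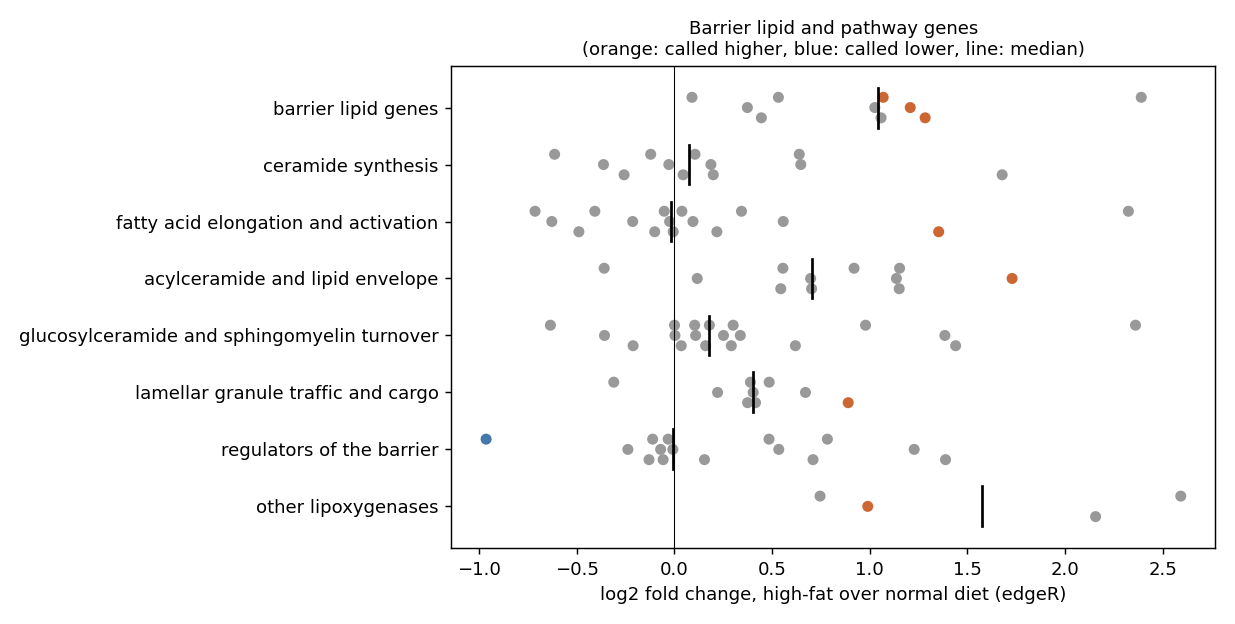
Each point is a tested gene, placed by its log2 fold change (high-fat over normal diet), with 1 line of points for the barrier lipid genes and for each pathway list (orange, called higher; blue, called lower; black line, median). The median is 1.04 for the barrier lipid genes, 0.70 for acylceramide and lipid envelope genes and 0.08 for ceramide synthesis.

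Markers of keratinocyte classes were summed beside these genes, and 1.12% of all genes tested were called higher and 0.228% lower, as above. Bulge stem cell markers were present in each library, with a sum of 4439 to 5388 CPM and 0 of 8 called by edgeR (2 higher and 2 lower at an unadjusted p under 0.05, 1 lower by DESeq2). The 2 basal markers summed to 9869 and 11000 CPM with the normal diet, and 14770 and 13510 CPM were reached with the high-fat diet. Krt14 of this pair was called higher by edgeR and DESeq2, and Krt5 was not.

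The 8 suprabasal markers summed to 1315 and 2866 CPM with the normal diet and to 4157 and 5104 CPM with the high-fat diet, with 3 called higher by edgeR (Dsg1a, Krt10 and Krtdap) and 3 by DESeq2 (Dsg1a, Krtdap and Sbsn). The second normal diet library stood 2.18-fold above the first in the suprabasal sum, where the members' sum had a ratio of 1.29. The ratio was 2.69 in the sum of Krt1 and Krt10 and 1.26 in the sum of the other 6, a split made after the values were seen. Single markers of these 6 had ratios from 1.13 in Dsg1a to 2.34 in Ivl. The other 6 went from 470 and 593 CPM to 926 and 995 CPM. The 6 upper follicle markers summed to 1263 and 1144 CPM with the normal diet and to 1624 and 1384 CPM with the high-fat diet, with 4 called higher by edgeR and by DESeq2.

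The 7 granular layer markers summed to 195 and 421 CPM with the normal diet and to 195 and 265 CPM with the high-fat diet. Of these Flg was called lower by edgeR but not by DESeq2 (adjusted p = 0.219), which called Flg2 higher and Hrnr lower. Leaving out the first normal diet library gave Flg a log2 fold change of -2.93 and leaving out the second -1.03, and it was called in neither fit (edgeR adjusted p = 0.456 and 0.266). Without either normal diet library edgeR called 0 markers in these 5 lists. Without the first high-fat library it called 2 suprabasal and 1 upper follicle marker higher, and without the second 2 suprabasal markers, 2 upper follicle markers and Krt14 higher and Flg lower. The part of basal, suprabasal or upper follicle cells in the levels of the members was not tested.

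Sebaceous markers summed to 284 and 223 CPM (normal diet) and to 207 and 198 CPM (high-fat diet). Of these 8 markers 4 were too low to test and 0 of the other 4 were called by edgeR or DESeq2, with 0 higher and 1 lower at an unadjusted p under 0.05. Immune markers summed to 20.2 and 36.1 CPM and then 43.2 and 49.97 CPM, and endothelial markers to 8.14 and 11.2 CPM and then 14.9 and 19.6 CPM. Fibroblast markers summed to 44.9 and 56.4 CPM and then 80.5 and 64.5 CPM. Of these 6 markers all had a positive log2 fold change, with a median of 0.53, and edgeR and DESeq2 called 0, with 2 higher and 0 lower at an unadjusted p under 0.05. Immune, endothelial and fibroblast sums were thus higher in both high-fat libraries, a pattern held by 22.7% of single genes tested. Of the 5 immune and 3 endothelial markers tested, edgeR and DESeq2 called 0. At an unadjusted p under 0.05, 2 immune and 0 endothelial markers were higher and 0 lower, where 7.24% of all genes were higher. The part of immune, endothelial and fibroblast cells in the levels of the members was not tested. Melanocyte markers between 12.6 and 26.3 CPM and muscle markers between 1.19 and 3.10 CPM. The fat cell genes Adipoq, Lep and Plin1 had 0 counts in all 4 libraries, and adipocyte markers summed to at most 1.79 CPM.

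**Figure D5:**
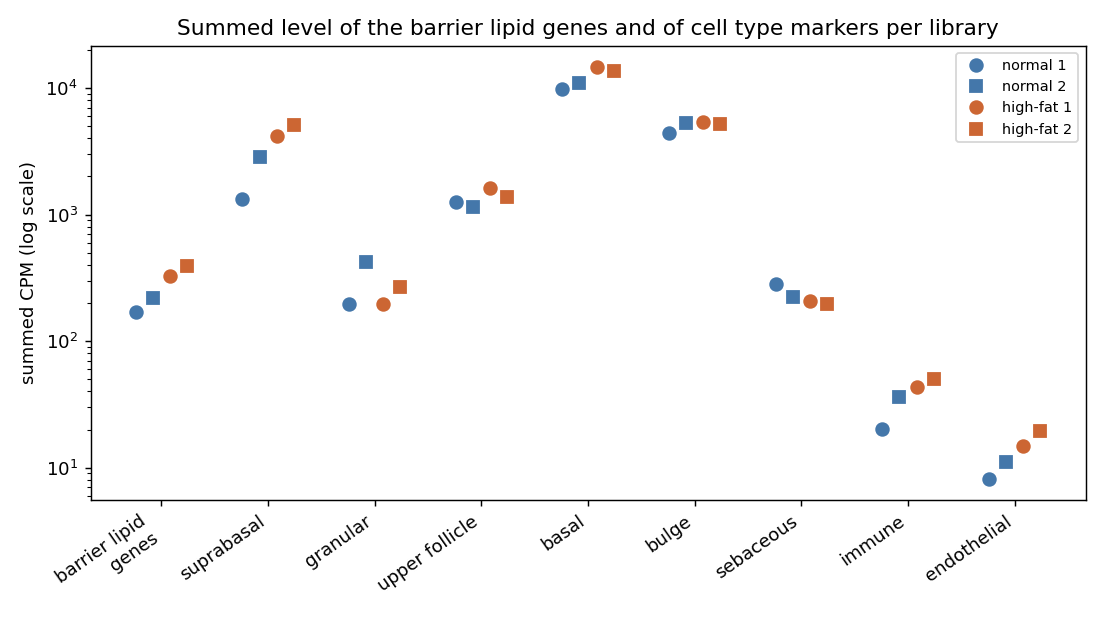
Summed CPM (log scale) are plotted per library for the 10 barrier lipid genes and for 8 lists of cell type markers (blue, normal diet; orange, high-fat diet; circle, replicate 1; square, replicate 2). The barrier lipid sum goes from 169 and 218 to 328 and 392 CPM, the suprabasal sum from 1315 and 2866 to 4157 and 5104 CPM, and the granular sum shows no separation of the diets.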

How the data were processed

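RNA-seq counts were compared between 2 normal diet and 2 high-fat diet libraries, grouped by the diet in the labels. Named in the submitters' processing notes, with no roles, are HISAT2 2.0.1, cutadapt 1.9.1 and bcl2fastq 2.17.1.14. Not given in the sources used here are the counting program, strand handling and annotation. Each gene has a raw count and an FPKM value per library in the table the authors deposited. The deposited FPKM equalled count over exonic size and column total within 0.005. Of 55141 identifiers found in a GENCODE annotation of GRCm38, 99.4% had the same coordinates, so positions are given on that build.

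Counts were tested with edgeR 4.0.16 under R 4.3.3 (quasi-likelihood test, TMM factors 0.965 to 1.04, default filter by diet, Benjamini-Hochberg adjustment over 14479 genes, no replicate term). A CPM of 3 counts was 0.291 to 0.358. The common coefficient of variation between libraries of a diet, beyond counting error, was 20.3% by edgeR. The SE is the log2 fold change over the square root of F. Alternatives used DESeq2 1.42.0, limma 3.58.1 on log2(FPKM + 1) or log2(FPKM + 0.1), other scalings and filters, a threshold of 0.1, a block on replicate number, and fits without 1 library, in which a diet's lone library is taken to vary like the other pair. The members, the pathway lists, the markers and the motifs were chosen from general knowledge with earlier results of these data known. Named genes are the 10 members and, in each pathway list, every called gene or else the 2 with the smallest p. Elovl5, Elovl6, Cers2, Sptlc1, Acsbg2 and Alox12 were named after their values were seen. So were the genes that passed the filter through 1 diet, the markers named singly and the regulators in the closing section.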

Additional observations from a re-analysis of the deposited data

How the results depend on the processing

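The log2 fold change of each member stayed positive in every alternative in which it was measured that refits the data (15 each, 14 for Aloxe3, which fell below the mean FPKM filter). The 3 member calls were the same genes with DESeq2, with upper-quartile or median-ratio factors, on total counts, without ribosomal, mitochondrial and small RNAs and with other count filters, and a threshold of 0.1 added no member. With equal sums of TPM 2 remained. With limma on log2(FPKM + 1) or log2(FPKM + 0.1) 0 were called, and the first gave a median log2 fold change of 0.57. Each time 5 members had an unadjusted p under 0.05, as did 2097 and then 2168 of 19913 genes. Leaving out 1 library gave the members a median of 0.77 to 1.21, with their calls kept only without the first high-fat library. It gave 0 to 81 higher and 0 to 2 lower genes among all genes, and 0 to 1 higher and 0 lower genes among the pathway lists. The lower counts come with fewer samples.

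Over all genes, where 162 were higher and 33 lower, DESeq2 called 275 and 119, the fit with no filter 408 and 225, equal sums of TPM 88 and 3, limma 1 and 0 with either pseudocount, and a threshold of 0.1 gave 280 and 101. Total counts gave 65 lower, and the mean FPKM filter 213 higher and 55 lower. In the pathway lists, with 4 higher and 1 lower, DESeq2 called 9 and 2, no filter 14 and 2, equal sums of TPM 2 and 0, limma 0 and 0, and a threshold of 0.1 gave 9 and 2. The cause of these shifts was not tested.

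With the replicate number as a block, edgeR called 308 higher and 111 lower genes, the same 3 members, and 8 higher and 2 lower pathway genes. The labels state no pairing, and across 14479 genes the deviations of libraries with the same number correlated at -0.0127, so the numbers were not used to pair libraries. With 2 libraries per diet a two-sided exact permutation test of a single value cannot go below p = 0.333.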

Other observations

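Regulators of the barrier were described above by their count and by Prdm1, the 1 called gene, which was lower. Of 15 tested, 7 had a positive and 8 a negative log2 fold change, with a median of -0.01. In 6 of them both high-fat libraries stood above the normal diet pair, where 22.7% of all genes tested did. These 6 were named after their values were seen, and edgeR called 0 of them. Over all 15 regulators, 6 were higher and 1 lower at an unadjusted edgeR p under 0.05, where 7.24% of all genes were higher by that rule. DESeq2 called 4 of the 15 higher and 1 lower, against 1.9% of all genes higher. Grhl3, a Grainyhead-like factor needed for barrier formation, stood at 6.10 and 8.04 CPM with the normal diet and at 14.1 and 22.9 CPM with the high-fat diet (edgeR adjusted p = 0.0799). Zfp750, a factor of terminal differentiation, stood at 30.5 and 36.7 CPM and then at 62.9 and 52.8 CPM (edgeR adjusted p = 0.0663). Klf4 stood at 92.6 and 106.7 CPM and then at 136 and 152 CPM (edgeR adjusted p = 0.101). The other 3 of the 6 named were Grhl1, Gata3 and Ovol1, with log2 fold changes of 0.71, 0.48 and 1.23. Trp63, the master factor of stratified epithelium, had a log2 fold change of -0.01.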
